A study of Mus musculus with 42 samples.

Results

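The 20S proteasome core is built from structural subunits around its catalytic ones, and dedicated chaperones put the particle together. The 9 genes described here are the β subunit genes without catalytic activity (Psmb1, Psmb2, Psmb3 and Psmb4) and the assembly chaperone genes (Pomp, Psmg1, Psmg2, Psmg3 and Psmg4). They were chosen by symbol, matched through the Ensembl gene identifiers of the files, and make up 9 of the 47719 genes listed. All 9 passed the filter on low values in each cell type. RNA levels come from 42 libraries of mouse spleen, split into a B cell, a T cell and a non-BT fraction. Genotypes were Psmb8 +/+, called wild type here, and Psmb8 G201V/G201V, called homozygous. Animals were labelled Old or Young and had no treatment. Psmb8 is a catalytic β subunit that immune cells place in the core in exchange for a constitutive one. Each of the 3 cell types came from 3 wild-type and 3 homozygous old animals and from 4 wild-type and 4 homozygous young animals, which gave 12 groups. The sources used here do not give the strain, sex or age in weeks, nor how the fractions were obtained.

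The 20S core is a stack of α rings on the outside and β rings on the inside. The chaperone pairs Psmg1 with Psmg2 and Psmg3 with Psmg4 help the α ring form, and Pomp then brings the β subunits onto it, helps a pair of such intermediates to join and is degraded inside the finished particle. The structural β subunits complete the β ring and are needed in constitutive proteasomes and immunoproteasomes alike, whereas the catalytic β subunits are exchanged between these forms. Human variants of PSMB4, PSMG2 and POMP have been described in proteasome-associated autoinflammatory disease, the group of disorders to which the series title ties the Psmb8 variant.

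The deposited values are FPKM, fragments scaled by transcript length and library size, so levels of different genes are compared per length. The number of fragments behind a library was estimated from the smallest steps of these values and ran from 9450000 to 25250000. B cell markers averaged 8.93 to 9.13 on the log2(FPKM + 1) scale in the B cell groups and 2.44 to 3.61 elsewhere, and T cell markers 7.94 to 8.12 in the T cell groups and 1.71 to 4.62 elsewhere. The non-BT groups carried neutrophil markers at 9.22 to 9.96, and natural killer markers at 5.56 to 7.39. The natural killer list also stood at 5.83 to 6.58 in the T cell groups. The files give levels only, so the G201V change itself was not seen. The 3 libraries of young wild-type animal 4 have WT in their titles but Psmb9 +/+ as genotype label, and were kept as wild type. In each cell type and genotype the old animal numbered 2 had the highest sum of FPKM of its group, up to 1183718 in homozygous non-BT cells. The labels number the animals but do not say how they relate, so p-values measure the spread between these animals. In bulk RNA, fewer cells of a type and less RNA per cell cannot be told apart.

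The structural β subunit genes and Pomp were abundant in every library, and the Psmg genes were several times lower. In all 42 libraries Psmb1, Psmb2, Psmb3 and Pomp were the 4 highest of the 9 genes, and Psmb4 was the fifth. Psmb3 led in 11 of 14 B cell libraries and in 14 of 14 T cell libraries, Psmb2 led in the other 3 B cell libraries, and Pomp led in 14 of 14 non-BT libraries. The lowest gene was Psmg3 in 24 libraries and Psmg1 in 18.

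Psmb1 (chr17:15475021-15499751, minus strand, GRCm38) ranged from 178 to 379 FPKM over the 42 libraries. Psmb2 (chr4:126677630-126709714, plus strand) ranged from 226 to 378 FPKM and had the smallest ratio of highest to lowest library of the 9 genes, 1.67. Psmb3 (chr11:97703399-97713500, plus strand) ranged from 216 to 519 FPKM. These genes encode ring positions next to or between the catalytic subunits, and their levels lay close to each other, with medians of 258, 300.4 and 311 FPKM. Psmb4 (chr3:94884093-94886961, minus strand) encodes the last β subunit to enter, whose tail in yeast reaches across to the opposite ring. Psmb4 stood lower than its ring partners in every library, at 77.5 to 195 FPKM with a median of 108. Pomp (chr5:147860461-147876456, plus strand) ranged from 223 to 514 FPKM, with a median of 316.

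Of the α ring chaperones, Psmg1 (chr16:95979933-95990960, minus strand) ranged from 20.1 to 54.8 FPKM and its partner Psmg2 (chr18:67641599-67654162, plus strand) from 31.5 to 60.6 FPKM. Psmg3 (chr5:139823592-139826885, minus strand) ranged from 20.1 to 43.0 FPKM and its partner Psmg4 (chr13:34162964-34178173, plus strand) from 35.3 to 87.2 FPKM. The partners of a dimer differed in level. In young wild-type T cells, for instance, Psmg1 was 0.69 times Psmg2, and Psmg4 was 2.03 times Psmg3, as ratios of geometric means of FPKM. The near-identical copies with values hardly drew reads. The listed copies of Psmb3 (Gm13649 and Gm5356) had a median of 0 FPKM and at most 0.293. Another Psmb3 copy, AC114990.1 (98.99% identical over 298 bases), was not among the genes listed, so its level is unknown. The overlapping genes Gm26938 (at Psmg3, identical to it over 280 bases) and Gm35648 (opposite Pomp) reached at most 0.134 and 1.65 FPKM. The library kit does not mark strand.

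**Figure D1:**
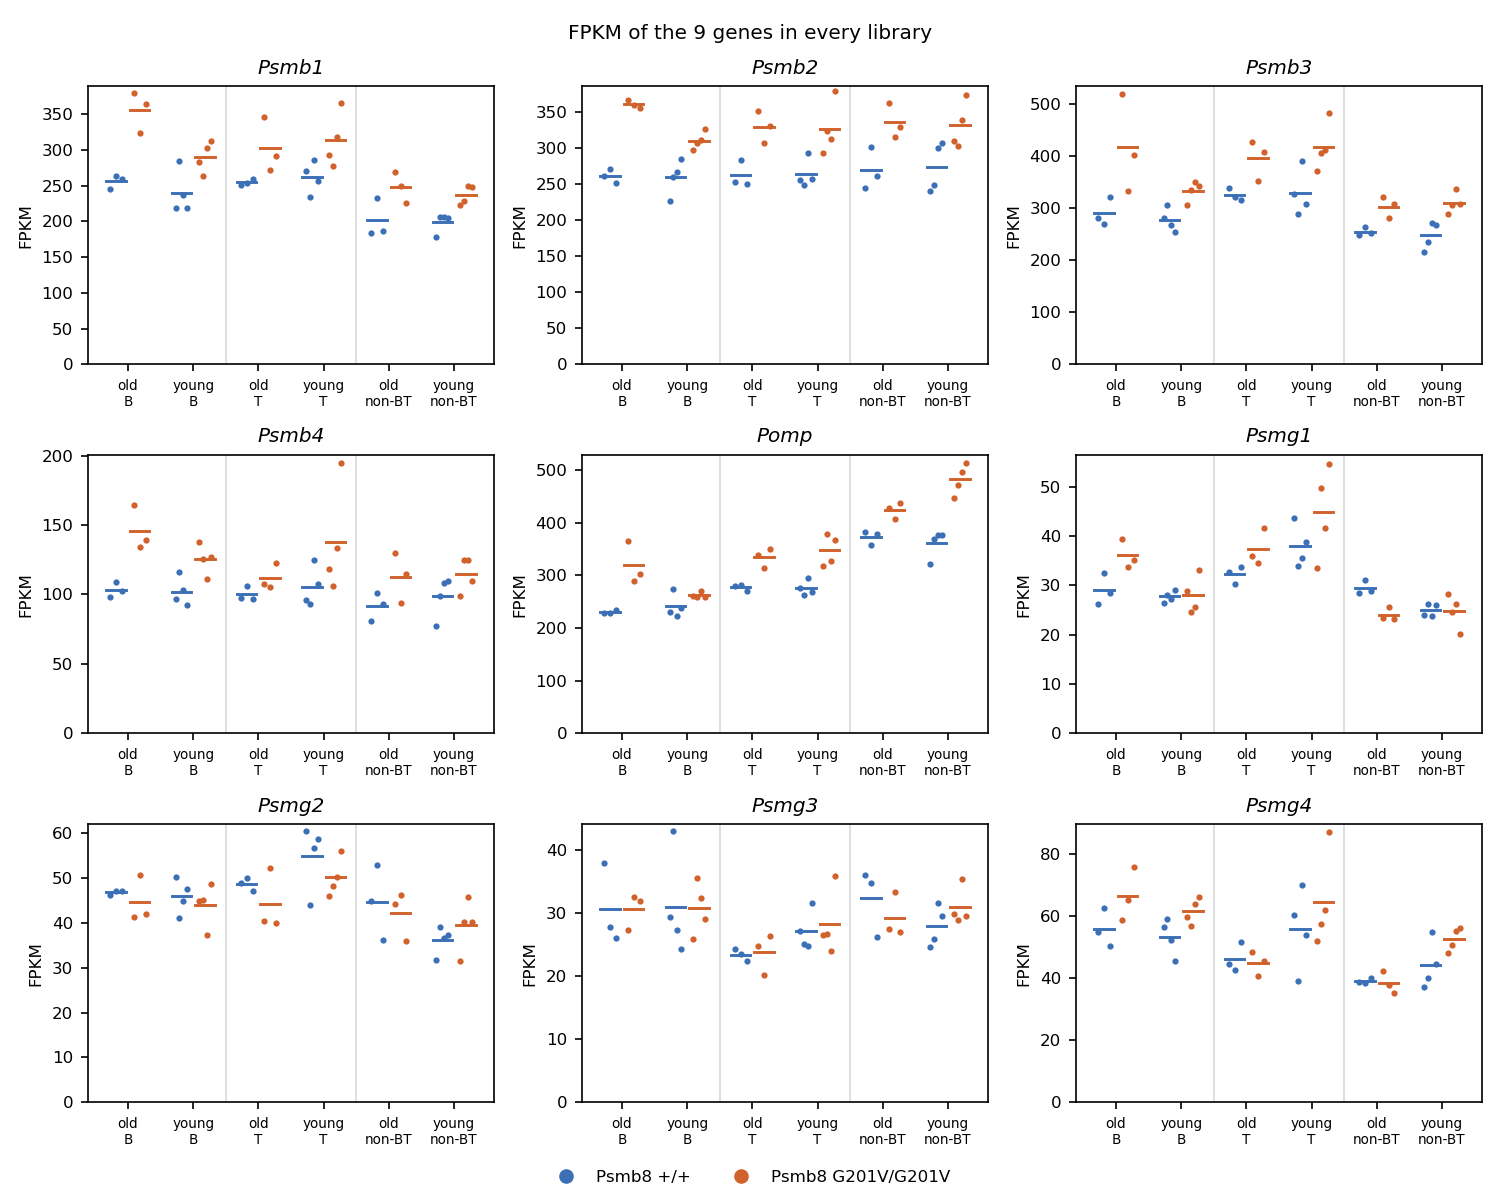
FPKM (vertical axes, each from 0) of the 9 genes in each of the 42 libraries, by age and cell type, with points for libraries and bars for group means. Homozygous points lie above most wild-type points for Psmb1 to Psmb4 and Pomp, while the points of the Psmg genes intermingle in most groups.

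Promoter sequences are shown for Psmb3, Psmb4 and Pomp, which were higher together in homozygous animals, and for Psmg1, which was not called. RefSeq promoter windows (GRCm38.p6, 250 bases before to 50 after the start) were matched for 6 of the 9 genes, Psmb3, Psmb4, Pomp, Psmg1, Psmg3 and Psmg4. They were searched on both strands for TGANNNNGC, the core of the antioxidant response element, to which Nrf1 and Nrf2 can bind. Capitals mark a match, written in the direction of the gene whichever strand holds it. The windows are those of Psmb3 (chr11:97703184-97703483, plus strand), Psmb4 (chr3:94886909-94887208, minus strand), Pomp (chr5:147860378-147860677, plus strand) and Psmg1 (chr16:95990911-95991210, minus strand).
Psmb3: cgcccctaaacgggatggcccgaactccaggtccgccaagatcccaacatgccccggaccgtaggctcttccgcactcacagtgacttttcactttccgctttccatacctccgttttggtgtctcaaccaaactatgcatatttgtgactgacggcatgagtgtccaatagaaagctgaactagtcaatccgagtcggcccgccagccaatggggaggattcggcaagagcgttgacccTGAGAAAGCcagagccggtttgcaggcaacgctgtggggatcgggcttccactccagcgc
Psmb4: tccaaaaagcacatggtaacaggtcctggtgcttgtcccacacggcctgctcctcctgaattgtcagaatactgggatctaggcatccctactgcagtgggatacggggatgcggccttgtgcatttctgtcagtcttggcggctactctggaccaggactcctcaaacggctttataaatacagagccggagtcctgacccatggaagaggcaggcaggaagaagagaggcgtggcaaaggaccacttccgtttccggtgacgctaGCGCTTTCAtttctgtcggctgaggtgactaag
Pomp: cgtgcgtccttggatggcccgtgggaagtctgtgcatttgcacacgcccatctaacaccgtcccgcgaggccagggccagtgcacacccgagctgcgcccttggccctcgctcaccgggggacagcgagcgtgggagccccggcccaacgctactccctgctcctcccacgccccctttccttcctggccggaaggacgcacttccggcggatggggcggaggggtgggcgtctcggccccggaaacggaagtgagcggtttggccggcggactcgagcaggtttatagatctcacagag
Psmg1: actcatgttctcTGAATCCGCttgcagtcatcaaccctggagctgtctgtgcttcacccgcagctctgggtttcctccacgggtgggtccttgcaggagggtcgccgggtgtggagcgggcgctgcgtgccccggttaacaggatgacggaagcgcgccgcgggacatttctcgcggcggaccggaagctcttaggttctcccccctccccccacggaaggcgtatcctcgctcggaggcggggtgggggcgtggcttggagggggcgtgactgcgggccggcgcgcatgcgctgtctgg
Psmb3, Psmb4 and Psmg1 hold 1 match each, Psmg4 holds 2, and Pomp and Psmg3 hold none in this window. A match was present in 41.3% of all 32851 promoter windows, so it is a description of these letters and not a sign of binding. CCAAT was found in Psmb3, with 2 matches, and in 37.4% of all windows. The core of the interferon-stimulated response element had 1 match each in Psmb3 and Psmg4 and was in 3.44% of all windows. These 2 motifs were also searched on both strands and are not in capitals.

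The first question was whether the 9 genes differ between the genotypes. Averaged over each animal's 3 cell types, Psmb1, Psmb2, Psmb3, Psmb4 and Pomp were higher in homozygous animals, each by about the same amount, and no Psmg gene passed the test. This comparison over 14 animals was added after the values per cell type had been seen. It called 5 of the 9 genes higher at an adjusted p under 0.05 (limma, two-sided, Benjamini-Hochberg over 15143 genes), beside 0.304% of all genes tested that were called higher and 0.964% called in either direction. The median log2 fold change was 0.30 over the 9 genes and -0.02 over all genes tested.

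As animal means of log2(FPKM + 1), Psmb1 ran from 7.78 to 7.97 with a median of 7.87 in the 7 wild-type animals and from 8.004 to 8.36 with a median of 8.17 in the 7 homozygous animals. Its log2 fold change was 0.30 ± 0.05 (SE; adjusted p = 0.0201, limma). Psmb2 ran from 7.91 to 8.16 with a median of 7.997 in wild type and from 8.23 to 8.50 with a median of 8.35 in homozygous animals. Every homozygous animal lay above every wild-type animal for both genes, as it did for 0.264% of all genes. The fold change of Psmb2 was 0.33 ± 0.06 (adjusted p = 0.0182, limma). Psmb3 ran from 8.08 to 8.25 with a median of 8.15 in wild type and from 8.32 to 8.70 with a median of 8.51 in homozygous animals, again without overlap, and its fold change was 0.33 ± 0.06 (adjusted p = 0.0192, limma). Psmb4 ran from 6.5 to 6.82 with a median of 6.69 in wild type and from 6.79 to 7.14 with a median of 6.95 in homozygous animals. Here 6 of 7 homozygous animals lay above the highest wild-type animal, and the fold change was 0.30 ± 0.06 (adjusted p = 0.0449, limma).

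Pomp gave the smallest adjusted p of the 9 genes. It ran from 8.10 to 8.23 with a median of 8.18 in wild type and from 8.38 to 8.55 with a median of 8.49 in homozygous animals, all 7 above every wild-type animal. Its fold change was 0.30 ± 0.04 (adjusted p = 0.00763, limma), or 1.23-fold. A two-sided exact permutation test that exchanged genotypes within each age gave an unadjusted p = 0.00143 for each of these 5 genes, the smallest its 1400 permutations allow. It used the same animal means as limma, so it is not independent of the calls above. It was run on the 9 genes only, so no share of all genes stands beside it. Of the promoters shown, those of Psmb3 and Psmb4 hold the TGANNNNGC letters, as does that of Psmg1, which was not called, and that of Pomp does not.

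None of the α ring chaperone genes passed the test. Psmg1 ran from 4.88 to 5.01 with a median of 4.97 in wild type and from 4.96 to 5.10 with a median of 5.01 in homozygous animals, with a fold change of 0.07 ± 0.04 (adjusted p = 0.479, limma). Psmg2 had a fold change of -0.06 ± 0.06 (adjusted p = 0.722, limma) and Psmg3 of 0.02 ± 0.06 (adjusted p = 0.937, limma). Psmg4 ran from 5.54 to 5.90 with a median of 5.59 in wild type and from 5.57 to 6.12 with a median of 5.76 in homozygous animals, a fold change of 0.14 ± 0.07 (adjusted p = 0.381, limma). The genotypes overlapped for all 4 genes. Their unadjusted p by the exact permutation test was 0.0186 for Psmg1, 0.353 for Psmg2, 0.809 for Psmg3 and 0.0371 for Psmg4.

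Pomp was called in all 26 alternative settings of this comparison, Psmb2 in 22, Psmb3 in 19, Psmb1 in 16 and Psmb4 in 10, and their fold changes stayed between 0.26 and 0.38. The count of 5 was 1 (Pomp) without old homozygous animal 1, without old wild-type animal 3 or without the B cell libraries. It was 2 without old wild-type animal 1, young wild-type animal 1, young homozygous animal 3 or the non-BT libraries, and 3 without old homozygous animal 3 or the Psmb9-labelled animal. With the replicate number as a block it was also 3 (Psmb2, Psmb3 and Pomp). Over all genes 146 were called in the main fit, 44 to 58 where the count was 1 and 44 to 89 where it was 2. Where it was 3 there were 71, 73 and, with the block, 154.

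**Figure D2:**
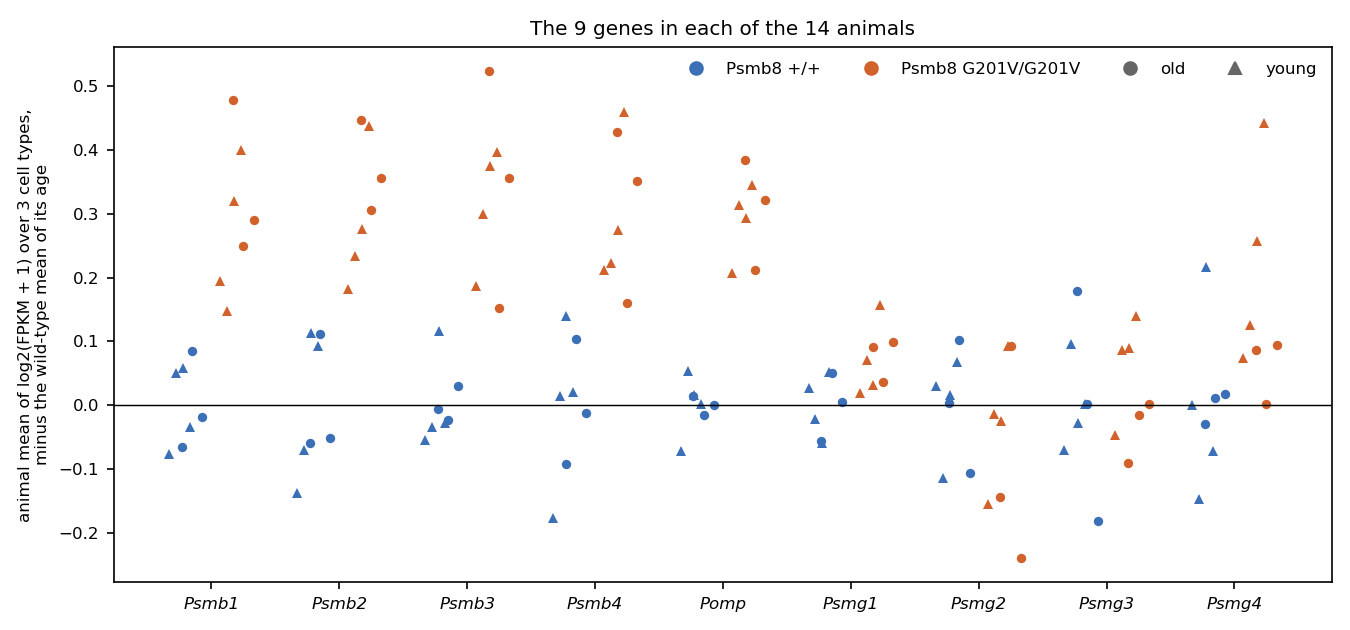
Each animal's mean log2(FPKM + 1) over its 3 cell types, minus the wild-type mean of its age (vertical axis), for the 9 genes, with circles for old and triangles for young animals. On this axis the 7 homozygous animals stand above all 7 wild-type animals for Psmb1 to Psmb4 and Pomp.

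The genotype comparison of one gene was then set against that of another within the same animals, for each of the 5 higher genes against each Psmg gene. These 20 pairs were formed after the values had been seen, so they are a description with no test. The differences ran from 0.16 (Pomp against Psmg4) to 0.39 (Psmb3 against Psmg2) on the log2 scale. The difference of Pomp against Psmg1 was 0.23, and it put all 7 homozygous animals above the highest wild-type animal. The differences against Psmg4 were the smallest, and 3 or 4 of the 7 homozygous animals lay above the highest wild-type animal there.

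The β subunit and Psmg genes were also set against each other per library, as the ratio of the geometric mean of Psmb1 to Psmb4 to that of Psmg1 to Psmg4. It sets genes found higher above over genes not called, in the same libraries. Its direction thus largely follows from those results, and it is a description with no test. How often ratios of other gene sets separate the genotypes was not counted. In old B cells the ratio was 5.15, 5.30 and 5.90 in wild-type and 8.20, 6.16 and 6.70 in homozygous libraries. In old T cells it was 5.89, 6.34 and 5.73 against 7.52, 6.76 and 7.002, and in old non-BT cells 4.75, 5.38 and 5.68 against 7.62, 6.09 and 7.58. Every old homozygous library was above every old wild-type library of its cell type. In young B cells the ratio was 4.95, 5.46, 5.61 and 5.57 in wild-type and 6.48, 6.22, 6.55 and 6.15 in homozygous libraries. In young non-BT cells it was 5.67, 5.79, 5.88 and 6.15 against 6.28, 6.53, 6.22 and 6.95. Neither pair of groups overlapped. In young T cells, at 4.72, 5.69, 5.84 and 4.86 against 6.49, 5.69, 6.48 and 6.06, 1 homozygous library lay within the wild-type range.

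**Figure D3:**
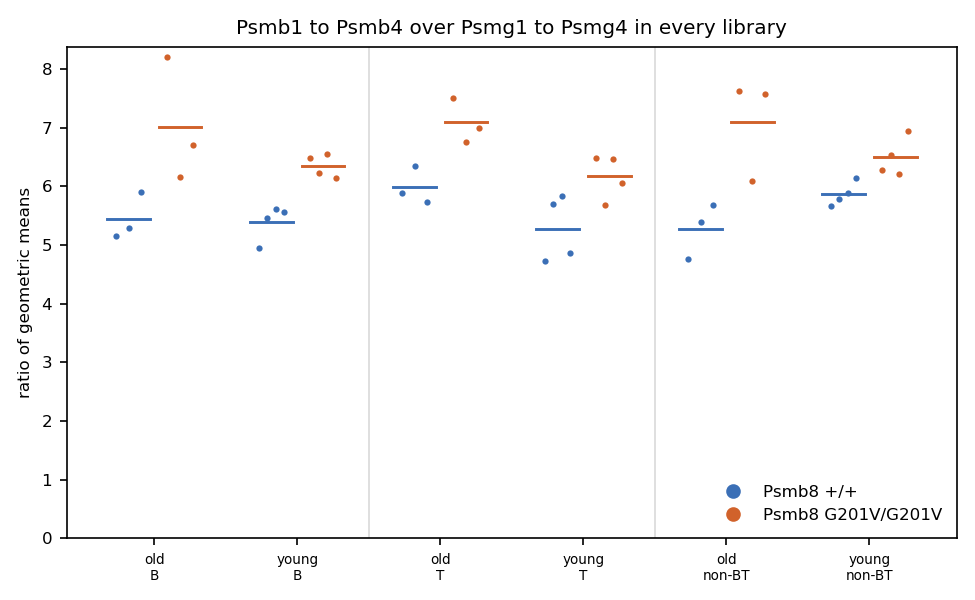
Ratio of the geometric mean FPKM of Psmb1 to Psmb4 to that of Psmg1 to Psmg4 (vertical axis, from 0) in each library, with bars for group means. Homozygous libraries lie higher in each age and cell type, with overlap in young T cells.

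In B cells the differences were largest in old animals, where no single gene passed the test. Psmb1 stood at 245, 264 and 259 FPKM in the 3 wild-type and 379, 324 and 364 in the 3 homozygous libraries. Psmb2 stood at 261, 271 and 252 against 366, 359.8 and 355, and Psmb3 at 281, 269 and 320.1 against 519, 333 and 401. Psmb4 stood at 98.1, 109 and 103 against 164, 134 and 139 FPKM. In each case all homozygous libraries were above all wild-type ones, by a log2 fold change of 0.47 ± 0.11, 0.46 ± 0.09, 0.51 ± 0.14 and 0.49 ± 0.11. Pomp stood at 228, 229 and 233 against 365, 289 and 303 FPKM (0.46 ± 0.10), and Psmg1 at 26.2, 32.5 and 28.6 against 39.5, 33.7 and 35.3 FPKM (0.31 ± 0.13). Groups thus did not overlap for 6 of the 9 genes, beside 6.04% of all genes with every homozygous library above every wild-type one. None of the 9 was called, with adjusted p (limma) from 0.23 upward, beside 0.00815% of all genes called. At an unadjusted p under 0.05 there were 6 of the 9, beside 10.1% of all genes. The 5 natural killer markers summed to 2.46 to 4.10 FPKM in old wild-type and 1.63 to 2.45 in old homozygous B cells, and their part was not tested.

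In young B cells Psmb2 stood at 226, 259.5, 266 and 285 FPKM in wild-type and 296, 307, 311 and 326 in homozygous libraries, and Psmb3 at 280.2, 304.8, 268 and 254 against 305.1, 334, 349.6 and 341. These were the 2 genes without overlap between the groups, beside 2.19% of all genes. Pomp, at 231, 275, 223 and 237 against 259.9, 259, 271 and 259.7 FPKM, overlapped because wild-type library 2 was above all 4 homozygous libraries. None of the 9 was called by limma, beside 0.0734% of all genes. At an unadjusted p under 0.05 there were 4, beside 9.39% of all genes.

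Averaged over both ages, 3 of the 9 genes were called higher in homozygous B cells, beside 0.22% of all genes called higher and 0.693% in either direction. These were Psmb1 (0.38 ± 0.07, adjusted p = 0.037), Psmb2 (0.36 ± 0.06, adjusted p = 0.0283) and Psmb4 (0.39 ± 0.07, adjusted p = 0.037), all by limma. Psmb3 (0.39 ± 0.09, adjusted p = 0.0746) and Pomp (0.29 ± 0.07, adjusted p = 0.0678) missed the threshold. The count of 3 was 0 without old homozygous library 1 or 3, old wild-type library 3, young wild-type library 1 or young homozygous library 2, 3 or 4. It was 1 (Psmb2) without old wild-type library 1 or 2, young wild-type library 3 or 4 or young homozygous library 1, and 5 without old homozygous library 2 or without both old libraries numbered 2. Calls over all genes moved too, from 85 in the main fit to 0 to 13 where the count was 0. They were 12 to 120 where it was 1, and 235 or 292 where it was 5. Beside this result, the 5 macrophage markers, all measured and none at 0 in every library, summed to 403 to 585 FPKM in young wild-type and 112 to 179 in young homozygous B cells, and the 5 plasma cell markers, likewise measured, to 1716 to 2808 against 837 to 1247. The 5 erythroid markers summed to 107 to 504 against 26.5 to 91.0, and the 4 platelet and megakaryocyte markers to 0.902 to 2.25 against 2.91 to 5.36. In old B cells the sums of all these lists overlapped. Macrophage markers stood there at 146 to 399 in wild-type and 82.8 to 357 in homozygous libraries, and plasma cell markers at 2030 to 3570 against 899 to 2794. Erythroid markers stood at 22.9 to 128 against 20.5 to 42.5, and platelet and megakaryocyte markers at 2.09 to 3.77 against 0.433 to 4.41. The part of these lists in the result was not tested.

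T cells showed differences of similar size for the β subunits and Pomp, and none of them passed the test. In old T cells Psmb2 stood at 253, 283 and 250.2 FPKM in wild-type and 351, 307 and 331 in homozygous libraries. Pomp stood at 279.9, 282 and 269 against 339, 314 and 350.3 FPKM. Homozygous libraries were all above wild-type libraries for 5 of the 9 genes (Psmb1, Psmb2, Psmb3, Pomp and Psmg1), beside 3.44% of all genes. In young T cells Pomp stood at 277, 264, 295 and 268 FPKM in wild-type and 317, 378, 327 and 368 in homozygous libraries. Pomp and Psmb2 did not overlap there, 2 of the 9 genes beside 3.08% of all genes. Psmb4 stood at 96.0, 92.99, 125 and 107 against 119, 106, 134 and 195 FPKM, with homozygous library 4 the highest of all 8. The age-averaged fold change in T cells was 0.30 ± 0.06 for Pomp (adjusted p = 0.168), 0.32 ± 0.08 for Psmb2 (adjusted p = 0.195) and 0.31 ± 0.09 for Psmb3 (adjusted p = 0.304), by limma. No gene of the 9 was called over both ages, beside 0.00758% of all genes, nor at either age, beside 0%. At an unadjusted p under 0.05 there were 2 of the 9 in old T cells (3.81% of all genes), 5 in young T cells (8.67% of all genes) and 4 over both ages (8.13% of all genes). The plasma cell markers summed to 648 to 1099 FPKM in young wild-type and 169 to 299 in young homozygous T cells, and the macrophage markers to 203.3 to 316 against 123 to 202.6. The 5 plasmacytoid dendritic cell markers summed to 79.7 to 97.4 against 49.9 to 67.8. In old T cells the sums of these lists overlapped, at 1554 to 5703 FPKM in wild-type and 1585 to 3907 in homozygous libraries for plasma cells. Macrophage markers stood there at 93.5 to 241 against 158 to 262, and plasmacytoid dendritic cell markers at 54.4 to 68.8 against 50.5 to 67.1. The part of these lists was not tested.

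In non-BT cells Pomp was the gene that passed the test. In young animals it stood at 322, 369, 376 and 376 FPKM in wild-type and 447, 471, 497 and 514 in homozygous libraries. All 4 homozygous libraries were above every wild-type one, and its fold change was 0.42 ± 0.08 (adjusted p = 0.0178, limma). Pomp was the only one of the 9 genes called in young non-BT cells, beside 0.228% of all genes called higher and 1.69% called in either direction. Psmb3 stood at 216, 235, 270.1 and 267 FPKM in wild-type and 289, 306, 335 and 308 in homozygous libraries, also without overlap (0.33 ± 0.09, adjusted p = 0.0778, limma). Psmb1 did not overlap either, so 3 of the 9 genes were separated, beside 4.87% of all genes. Without young wild-type library 1 or young homozygous library 2, 3 or 4 none of the 9 was called. Over all genes, 60 to 130 were then called, beside 229 in the main fit.

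In old non-BT cells Pomp stood at 383, 357 and 378 FPKM in wild-type and 427, 406 and 438 in homozygous libraries, and Psmb2 at 244, 301 and 261 against 363, 315 and 329. With Psmb3 these were the 3 genes whose homozygous libraries were all above the wild-type ones, beside 3.92% of all genes. Psmg1 was the 1 gene with the reverse order, at 28.5, 31.1 and 28.8 against 23.5, 25.6 and 23.1 FPKM, beside 3.55% of all genes. Its log2 fold change of -0.28 ± 0.12 did not pass the test (adjusted p = 0.819, limma). None of the 9 was called in old non-BT cells, beside 0% of all genes called. At an unadjusted p under 0.05 there were 4, beside 5.78% of all genes.

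Averaged over both ages, Pomp was higher in homozygous non-BT cells by 0.30 ± 0.06 (adjusted p = 0.025, limma), the 1 of the 9 genes called, beside 0.199% of all genes called higher and 1.18% in either direction. Psmb3 came next at 0.29 ± 0.07 (adjusted p = 0.0562, limma). The count of 1 was 0 without old library 1 or 3 of either genotype or young homozygous library 2, 3 or 4, it was 2 without old homozygous library 2, and it was 4 without old wild-type library 2 or without both old libraries numbered 2. Over all genes, 54 to 106 were called where the count was 0, beside 161 in the main fit. There were 401 where it was 2, and 506 or 769 where it was 4. The 5 plasmacytoid dendritic cell markers summed to 293 to 316 FPKM in young wild-type and 40.7 to 66.0 in young homozygous non-BT cells, and the plasma cell markers to 482 to 1171 against 133 to 241. The 7 T cell markers summed to 253.5 to 308 against 139 to 231, and the 5 conventional dendritic cell markers to 252 to 306 against 172 to 241. In old non-BT cells the sums of all these lists overlapped. Plasmacytoid dendritic cell markers stood there at 129 to 233 in wild-type and 46.9 to 212 in homozygous libraries, and plasma cell markers at 1939 to 4079 against 1559 to 3852. T cell markers stood at 266 to 333 against 123 to 692, and conventional dendritic cell markers at 188 to 338 against 205 to 253. The part of these lists in the result was not tested.

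**Figure D4:**
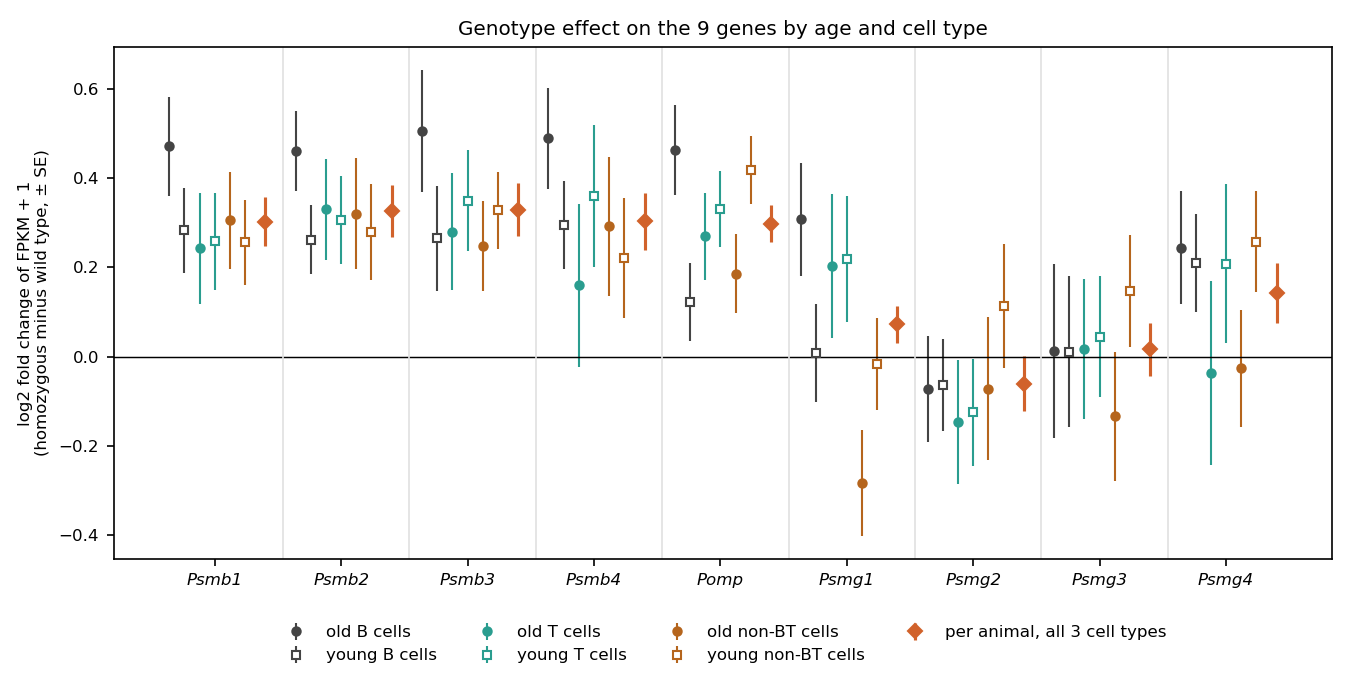
Log2 fold change of FPKM + 1 (homozygous minus wild type, vertical axis) with its SE from limma for the 9 genes, in each age and cell type and, as diamonds, over the 14 animals. All values of Psmb1 to Psmb4 and Pomp are above 0, and those of every Psmg gene lie on both sides of 0.

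The difference of the genotype effect between the ages and between the cell types was tested on its own. For Pomp the effect was 0.46 in old and 0.12 in young B cells, and 0.19 in old and 0.42 in young non-BT cells. The difference between the ages was 0.34 ± 0.13 in B cells (adjusted p = 0.686) and -0.23 ± 0.12 in non-BT cells (adjusted p = 0.937), by limma. None of the 9 genes was called for a difference between the ages in any cell type, beside 0% of all genes. By unadjusted p under 0.05 there was 1 of the 9 in B cells and 0 in each of the other cell types, while the shares of all genes were 7.07% for B cells, 3.87% for T cells and 5.32% for the non-BT fraction. Between cell types, the averaged effect on Psmg1 was lower in non-BT than in T cells by 0.36 ± 0.12 (adjusted p = 0.273, limma), the largest such difference among the 9. None of the 9 was called for a difference between cell types, beside 0.132% of all genes for T against B cells, 0.555% for non-BT against B cells and 0.357% for non-BT against T cells. At an unadjusted p under 0.05 there were 0, 1 and 1 of the 9, beside 7.03%, 9.65% and 8.06% of all genes, which is near the background.

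The library names of the young libraries fall into 2 separate runs of numbers, with 2 animals of each genotype in each run. Within each run Psmb1 to Psmb4 and Pomp were higher on average in homozygous libraries in all 3 cell types. These genes had been found higher in comparisons that include the same libraries, so their direction here largely follows from those results. The split is a description with no test and not a replication. How many of all genes keep their direction in both runs and all cell types was not counted. In the lower numbers the differences were 0.04 to 0.32 in B cells, 0.18 to 0.36 in T cells and 0.23 to 0.41 in non-BT cells, as log2 values. In the higher numbers they were 0.21 to 0.43, 0.30 to 0.48 and 0.10 to 0.42. The Psmg genes had both signs, from -0.22 to 0.41.

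The rest of the proteasome was counted in the same comparison over the 14 animals, from lists chosen with earlier results known, against the same 0.304% of all genes called higher and 0.964% in either direction. Of the 7 α ring genes, which shape the gate of the core, 4 were called higher, among them Psma5 (0.45 ± 0.07) and Psma1 (0.41 ± 0.06). Of the 3 constitutive catalytic subunit genes 2 were called higher, Psmb7 (0.32 ± 0.07) and Psmb6 (0.26 ± 0.05). Of the 10 genes of the 19S base, the ATPase part that unfolds substrates, 8 were called higher, among them Psmc2 (0.47 ± 0.07). Of the 9 lid genes 3 were called higher, among them Psmd7 (0.46 ± 0.08) and Psmd3 (0.36 ± 0.06). None of the 3 immunoproteasome catalytic genes was called, with a median of 0.04. Psmb8 itself was at 0.04 ± 0.07 and Psmb9 at -0.08 ± 0.13.

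The assembly factors outside the 20S core gave no calls. None of the 3 measured 19S assembly chaperone genes (Psmd5, Psmd9 and Psmd10) was called, with fold changes of 0.08, 0.05 and 0.03. Likewise none of the 5 activator and inhibitor genes was called, with a median of 0.08. Of the 7 genes of the Nrf1 pathway, which in mouse and human cells raises proteasome genes when proteasome activity falls, Vcp (0.27 ± 0.06) was called higher and none lower. Nfe2l1, which encodes Nrf1, was at -0.07 ± 0.05 (adjusted p = 0.638, limma). The tissue-restricted subunits were low. Psmb11 of thymus cortex was listed at 0 in every B cell and T cell library, and Psma8 of testis reached at most 3.07 FPKM.

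Age differences of the 9 genes did not pass the test. Averaged over the genotypes, none was called between old and young animals in any cell type by limma, while the share of all genes called was 0% for B cells, 4.28% for T cells and 6% for the non-BT fraction. At an unadjusted p under 0.05 there were 2, 2 and 1 of the 9, beside 14%, 20% and 24.4% of all genes, so these counts were near or under the background. The nearest to the threshold was Psmg4 in non-BT cells. It stood at 38.7, 38.5 and 40.3 FPKM in old and 37.2, 40.2, 54.8 and 44.6 in young wild-type libraries, and at 42.3, 38.0 and 35.3 in old and 48.0, 50.7, 55.4 and 56.3 in young homozygous libraries. Old homozygous libraries were all below the young ones, as for 8.54% of all genes, while the wild-type groups overlapped. Its log2 fold change was -0.30 ± 0.09 (adjusted p = 0.0571, limma), and it was called without young wild-type library 1. In T cells Psmg4 was at -0.37 ± 0.14 (adjusted p = 0.148, limma). In B cells Psmb1 was at 0.20 ± 0.07 (adjusted p = 0.249, limma).

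Between cell types most of the 9 genes passed the test, and the largest difference was that of Pomp between non-BT and B cells. Pomp was lowest in B cells, at 223 to 365 FPKM with a median of 259, intermediate in T cells, at 264 to 378 with a median of 304, and highest in non-BT cells, at 322 to 514 with a median of 394. Averaged over the 4 age and genotype groups, it was higher in non-BT than in B cells by 0.64 ± 0.04 (adjusted p = 8.84e-17, limma with the animal as a block), a 1.56-fold difference. It was higher in non-BT than in T cells by 0.41 ± 0.04 (adjusted p = 2.09e-11, limma). It was higher in T than in B cells by 0.23 ± 0.04 (adjusted p = 3.13e-06, limma), but only by 0.09 (adjusted p = 0.078) when libraries were centred on their medians. Relative to the geometric mean of Psmb1 to Psmb4, Pomp was 1.18 times as high in young wild-type B cells, 1.25 in young wild-type T cells and 1.90 in young wild-type non-BT cells.

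No β subunit gene was called higher in non-BT cells. Psmb1 was lower in non-BT cells, with 178 to 269 FPKM against 218 to 379 in B cells and 233 to 365 in T cells. Its fold changes were -0.36 ± 0.05 against B cells (adjusted p = 8.02e-08) and -0.35 ± 0.05 against T cells (adjusted p = 9.80e-08), by limma. Psmb3 was likewise lower in non-BT cells, by 0.22 ± 0.05 against B cells (adjusted p = 0.000423) and 0.39 ± 0.05 against T cells (adjusted p = 8.62e-08), by limma. Psmb3 was higher in T than in B cells by 0.17 ± 0.05 (adjusted p = 0.00903, limma), a call lost on median centring (0.02, adjusted p = 0.794). Psmb4 was lower in non-BT than in B cells by 0.18 ± 0.07 (adjusted p = 0.0207, limma). Psmb2 did not pass in any of the 3 comparisons, with fold changes of -0.01 ± 0.05, 0.02 ± 0.05 and 0.03 ± 0.05, but on median centring it was called in all 3. It was then lower in T than in B cells (-0.16, adjusted p = 0.00258) and lower in non-BT cells, at -0.28 against B cells and -0.12 against T cells, by limma.

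Among the chaperones, Psmg1 was highest in T cells, at 30.3 to 54.8 FPKM against 24.7 to 39.5 in B cells and 20.1 to 31.1 in non-BT cells. It was higher in T than in B cells by 0.32 ± 0.06 (adjusted p = 3.33e-05) and lower in non-BT than in T cells by 0.53 ± 0.06 (adjusted p = 1.58e-09), by limma. Psmg2, its partner, was lower in non-BT than in T cells by 0.28 ± 0.06 (adjusted p = 0.000147, limma). Psmg4 was lower in T than in B cells by 0.18 ± 0.07 (adjusted p = 0.031, limma) and was lower in non-BT than in B cells by 0.44 ± 0.07 (adjusted p = 1.85e-06, limma). Psmg3 was lowest in T cells, by 0.25 ± 0.08 against B cells (adjusted p = 0.00641, limma). The gap of 0.23 ± 0.08 between non-BT and T cells (adjusted p = 0.0107, limma) was 0.07 (adjusted p = 0.434) on median centring.

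Over the 9 genes, 5 were called between T and B cells, 7 between non-BT and B cells and 7 between non-BT and T cells. These shares stand beside 55%, 68.7% and 64.4% of all genes called, so most genes of these cells differed and the counts are near that background. Median centring shifted the median of all genes between non-BT and B cells from 0.06 to -0.24.

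**Figure D5:**
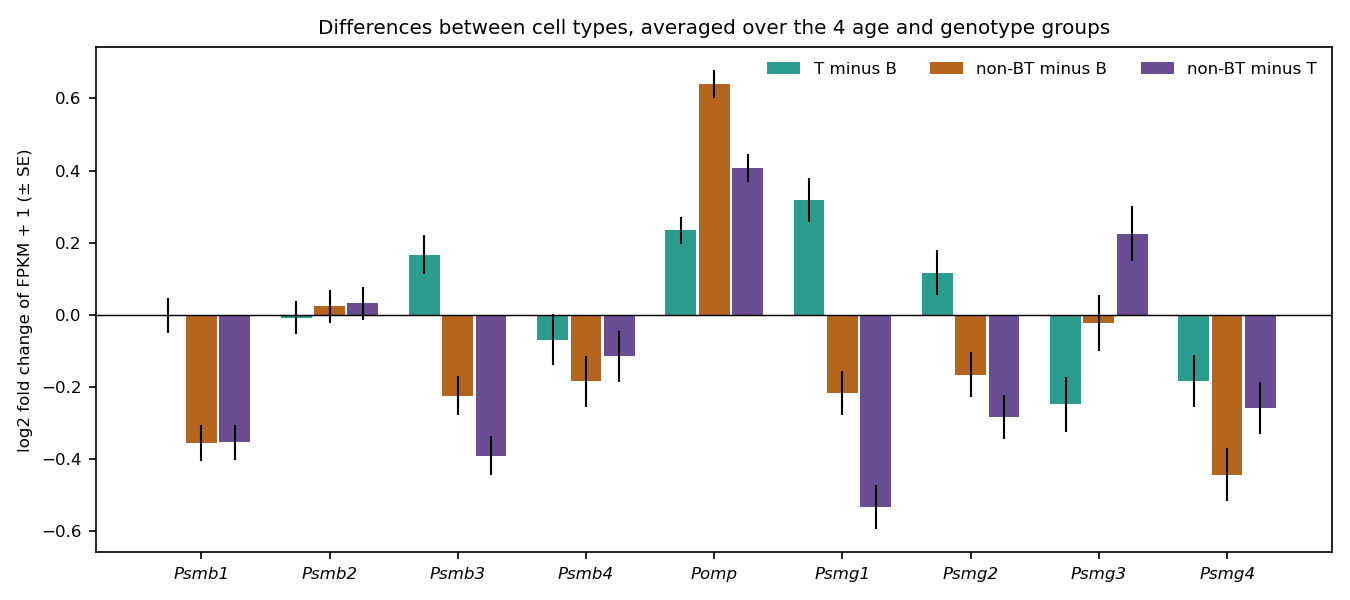
Log2 fold change of FPKM + 1 between cell types (vertical axis, bars from 0, with SE from limma), averaged over the 4 age and genotype groups, for the 9 genes. Pomp is positive in all 3 comparisons, reaching 0.64 for non-BT minus B cells. Psmb1, Psmb3, Psmb4, Psmg1, Psmg2 and Psmg4 are negative in both comparisons of non-BT cells.

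How the genes varied among libraries of one group was described by correlating their deviations from the group means over the 42 libraries. The points share libraries, and 3 come from each animal. Pearson's r was 0.448 to 0.761 for the 10 pairs among Psmb1 to Psmb4 and Pomp, with a median of 0.588. The highest was that of Psmb3 with Pomp. For the 6 pairs among the Psmg genes r was 0.11 to 0.399, with 0.198 for the partners Psmg1 and Psmg2 and 0.399 for the partners Psmg3 and Psmg4. Across the 2 sets r was -0.064 to 0.644, and the highest was that of Psmb1 with Psmg4.

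For each gene the most alike genes were sought over the 42 libraries by Pearson's r of log2(FPKM + 1), which also follows differences between cell types. The genes named as most like are those from outside the set described here. Psmb1 was most like Psmb6 (r = 0.90) and Psma2 (0.886), and Psmb3 also most like Psmb6 (0.89) and Psma2 (0.867). Psmb2 was most like Prdx1 (0.858), a peroxiredoxin gene, and then Psma7 (0.845). Psmb4 was most like Psma6 (0.789). Pomp was most like Gabarapl1 (0.908), an autophagy gene, and then Sem1 (0.903), a 19S lid gene. Other listed proteasome genes made up 28 of the 100 genes most like Psmb2, 10 of those most like Psmb1 and Psmb3, 12 of those most like Psmb4 and 1 of those most like Pomp. They made up none of the 100 most like any Psmg gene. The set described here also had members among these 100. For Psmb2 there were 4 (Psmb1, Psmb3, Psmb4 and Pomp), and for Psmb4 also 4 (Psmb1, Psmb2, Psmb3 and Psmg4). Psmb1 had 2 (Psmb3 and Psmb4) and Psmb3 had 2 (Psmb1 and Psmb4), while Pomp and the Psmg genes had none. The other lists hold few of the 15142 genes compared, so a count of none or 1 is near the background. Psmg1 was most like Ppia (0.851), the cyclophilin A gene, Psmg2 like Ostc (0.774), Psmg3 like Nfu1 (0.666) and Psmg4 like Rbx1 (0.85).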

How the data were processed

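RNA of 42 spleen cell libraries was prepared with SMART-Seq HT and Nextera XT kits, per the labels' protocols. The deposited values are FPKM per Ensembl gene, 1 file per library. The authors used HISAT2 2.1.0, Cufflinks 2.2.1 and Cuffdiff with GRCm38.p4, per the submitters' processing notes. Annotation release and read filters are not given in the sources used here. The kits do not record the strand, and the protocols mention no molecular identifiers. FPKM files hold no counts, so depth is an estimate.

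Groups came from the titles. The values were analysed as log2(FPKM + 1), so fold changes of low genes are understated. A gene was tested where 3 or more libraries reached 1 FPKM, which left 12269 genes in B cells, 13193 in T cells, 13587 in non-BT cells and 15143 overall. limma 3.58.1 (R 4.3.3) was fitted within each cell type on the 4 age and genotype groups. Cell types were compared over all libraries with the animal as a block (estimated correlation 0.0771). Calls used a Benjamini-Hochberg adjusted p under 0.05 over all genes tested, two-sided. The fit was tested on simulated data with 200 changed genes. No library pair held identical values. Other steps used Python 3.11.15.

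The 9 genes, the other gene lists and the tests were chosen with earlier results of these data known. All 9 genes are named, and members of the other proteasome lists by their calls. The genes outside the 9 most like each member are named by Pearson's r. Alternatives were another pseudocount (0.1), no filter, quantile normalization, median centring, array weights, a library-number term, a replicate block and leaving out libraries. By the rule that every correlation of deviations was over 0.1, replicate numbers paired the samples in old B cells only. Old T cells fell just short, at 0.0951, 0.213 and 0.1338. Each wild-type library there was most like the homozygous library of its own number. The same held for all libraries of old B cells, and for some but not all libraries of each remaining group. The main fits within a cell type used no block for such pairing.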

Additional observations from a re-analysis of the deposited data

Results flagged for a closer look

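In 4 of the 54 groups of 4 young libraries examined over the 9 genes, 1 library stood far from the other 3, with a gap to its nearest neighbour that took up most of the range of the group. Chance alone gives about 1 in 20 such groups. Psmb1 in young wild-type non-BT cells was 178 FPKM in the lowest library, against 203.9 to 206.6 in the others. Pomp in the same group was 322 FPKM in its lowest library, against 369 to 376 in the others. Both values come from library 1, without which no gene of the 9 was called between the genotypes in young non-BT cells. The same held without young homozygous library 2, 3 or 4, so the loss was not particular to library 1. Pomp in young homozygous B cells was 271 FPKM in the highest library, against 258.5 to 259.9 in the others. Psmg3 in young homozygous non-BT cells was 35.4 FPKM in the highest library, against 28.9 to 29.9 in the others.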

How the results depend on the processing

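Of the alternatives for counts of called genes, 456 stayed within 1.5 times the main count and 56 did not; for single genes, 4178 kept their direction and side of the threshold, 280 turned sign without a call in either setting, 42 gained a call, 106 lost one and 2 turned sign with a call. In B cells over both ages the count of 3 was 1 without the filter or the Psmb9-labelled library, 5 with median centring, with array weights or without the old animals numbered 2, and 0 to 5 over single left-out libraries. In young non-BT cells the count of 1 was 2 with quantile normalization, median centring, array weights, the library-number term or without the old animals numbered 2, and 0 to 1 over left-out libraries. In non-BT cells over both ages the count of 1 was 3 with quantile normalization, median centring or the library-number term, 4 with array weights or without the old animals numbered 2, and 0 to 4 over left-out libraries. In T cells over both ages array weights gave 2 calls (Psmb2 and Pomp). For age in non-BT cells, quantile normalization and median centring each called 1 gene (Psmg4), with 0 to 1 over left-out libraries. Over the 14 animals the count of 5 was 3 without the Psmb9-labelled animal, 1 without the B cells, 2 without the non-BT cells and 1 to 5 over left-out animals. In the settings that moved a genotype count, calls over all genes ran from 0 to 292 in B cells over both ages (85 in the main fit). They ran from 60 to 756 in young non-BT cells (229) and from 54 to 769 in non-BT cells over both ages (161). Over the 14 animals they ran from 44 to 154 (146). Psmb2 reversed on median centring, to -0.28 between non-BT and B cells and -0.12 between non-BT and T cells. The causes were not tested. With the replicate block the count over the 14 animals was 3 (Psmb2, Psmb3 and Pomp), and in B cells over both ages it was 2. In old B cells, where the numbers paired the samples by the rule used here, it stayed 0. The block changed no other count by over 1.5 times, and old against young could not be fitted with it.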
